A study of Mus musculus with 18 samples.

Results

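Bdnf, Vgf, Scg2, Nptx1, Nptx2, Pcsk1 and Inhba are 7 genes whose products neurons secrete, or use to process secreted peptides. They are grouped here as genes tied to neuronal activity. The libraries carry no measure of electrical activity, so no gene is shown here to respond to it. The genes were taken by symbol from the deposited table, where all 7 were found among 12012 genes. They were selected on measured values of the comparison described here, so their differences between genotypes are given as a description, without a test of their own.

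The libraries came from primary hippocampal cultures of E18.5 mouse pups that were wild type (WT) or homozygous for the Fibcd1tm1Lex allele (Fibcd1 -/-, KO), on a C57BL/6J background. Fibcd1 encodes a membrane protein of the fibrinogen-related domain family, and the study asked whether it passes on signals from chondroitin sulphate proteoglycans (CSPGs), the sugar-bearing proteins of the extracellular matrix around neurons. All libraries analysed here were from cells plated on a CSPG coating, 4 of WT (WT CSPG, libraries A to D) and 4 of KO (KO CSPG, libraries A to D). The other 10 of the 18 libraries of the series had no values in the table used here and were not analysed. They include library E of the 5 WT CSPG libraries in the series, and all those without CSPGs. A difference between the genotypes that is there without CSPGs therefore cannot be told apart from one that needs them. The text of the study gives the day in vitro as 3 and its appendix as 2. Cultures were plated in serum, the loss of Fibcd1 was in all cells and not in neurons alone, and the number of pups behind a library is not given.

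Activity opens calcium channels in neurons, and calcium signals act on transcription factors such as CREB and the AP-1 family, which raise the transcription of a set of genes within minutes to hours. Some of these genes encode transcription factors, and others encode proteins that leave the cell: granins and neuropeptides packed into dense-core vesicles, the neurotrophin BDNF, the neuronal pentraxins that gather AMPA-type glutamate receptors at synapses, and activin. Propeptides in dense-core vesicles are cut by prohormone convertases before release. In the hippocampus these genes are known for roles in synapse growth, plasticity and survival.

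CREB binds a palindromic site, the cAMP response element (CRE), and the promoters of several of the genes carry it. RefSeq start sites on GRCm38.p6 were available for Bdnf (7 start sites), Scg2, Pcsk1 and Inhba but not for Vgf, Nptx1 and Nptx2, and the 250 bases upstream of each were searched on both strands for the full CRE (TGACGTCA), for its shorter form (TGACG, or CGTCA on the other strand, which every full site also holds) and for the AP-1 site (TGAGTCA or TGACTCA). The full CRE was in 2 of the 10 windows, those of Scg2 and Pcsk1, and in 508 of 32851 windows of the same length over all genes (1.55%). The shorter form was in 3 of the 10 windows, and in 17.8% of all windows. The AP-1 letters were in 0 of the 10, against 4.46% of all, which says only that these letters are not in the windows searched. A match is a description of the letters and not evidence that a factor binds there. Stretches around the matches are shown because they hold the element that links these genes to CREB in background knowledge, 5′ to 3′ on the strand of the gene, with the matches in capitals.
Scg2: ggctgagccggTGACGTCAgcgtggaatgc
Bdnf: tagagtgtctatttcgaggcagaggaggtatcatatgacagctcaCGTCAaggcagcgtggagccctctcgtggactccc
Pcsk1: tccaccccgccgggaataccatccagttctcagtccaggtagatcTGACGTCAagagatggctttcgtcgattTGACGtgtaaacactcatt
The Scg2 stretch is chr1:79440076-79440105 on the minus strand. Its match begins 68 bases upstream of the RefSeq start at 79440026, and all 30 bases lie in an exon of another annotated transcript of Scg2. The Bdnf stretch is chr2:109692356-109692435 on the plus strand, in an intron of the longer Bdnf transcripts, and its match begins 35 bases upstream of the start at 109692436. The Pcsk1 stretch is chr13:75089734-75089825 on the plus strand, upstream of the gene, with the full CRE beginning 78 bases and the shorter form 50 bases before the start at 75089857.

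Values in the table are normalized counts: reads on a gene, scaled by a size factor particular to each library. Reads summed over the table were between 10099564 and 11174615 in WT CSPG and between 10541445 and 11647202 in KO CSPG. Fibcd1, the targeted gene, was at 54.3, 70.4, 60.1 and 182 normalized counts in WT CSPG libraries A to D and at 0.970, 0.932, 7.16 and 4.74 in KO CSPG. Its 4 KO values were below its 4 WT values, in the direction of the labels (adjusted p = 0.00599, limma with Benjamini-Hochberg adjustment over all genes). A gene is called changed where this adjusted p is under 0.05. In that fit 327 of 11553 counted genes were called, 2.83%, of which 122 were higher and 205 lower in KO CSPG. With upper-quartile scaling the split was 171 higher and 169 lower. The log2 fold change over all genes had a median of 0.00016.

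All 12 pan-neuronal markers were in the table, with a summed level of 88136 to 93345 normalized counts in WT CSPG and 88367 to 91108 in KO CSPG, and 0 of the 12 were called by limma, with 2 at an unadjusted p under 0.05. Markers of other cell types were present too, although the labels name the cells as neurons. The summed level of 11 astrocyte and radial glia markers was 51336 to 59819 in WT CSPG and 56452 to 61189 in KO CSPG, with Gfap at a mean of 20571 and 1 marker called lower. Oligodendrocyte lineage markers summed to 1098 to 1461 in WT CSPG and to 1708 to 1913 in KO CSPG. These ranges did not overlap, and 2 of the 8 markers were called higher, among them Olig1 (log2 fold change 0.59, SE 0.06, limma adjusted p = 2.33e-07). The study found glial genes such as Pdgfra and Olig2 among its top differences of KO against WT without CSPGs. It proposed that these may come from unequal glia numbers, and so turned to comparisons within each genotype. In bulk cultures, fewer cells of a type and less RNA per cell cannot be told apart. The 4 Y-linked genes Ddx3y, Eif2s3y, Kdm5d and Uty summed to 1557 to 1935 in WT CSPG and to 878 to 1092 in KO CSPG, and Xist was at 3912 to 5082 and 6375 to 8324. Neither pair of ranges overlapped, so the level of sex-linked genes moved with genotype, and the sex of the pups is not labelled.

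Scg2 and Vgf encode granins, acidic proteins that help to form dense-core vesicles and that are cut into bioactive peptides such as secretoneurin and the TLQP peptides. Scg2 (ENSMUSG00000050711, chr1:79434669-79440120, minus strand, 2 merged exon blocks) was at 3641, 3015, 3836 and 3132 normalized counts in WT CSPG A to D and at 3016, 3219, 3207 and 3224 in KO CSPG A to D. WT libraries A and C were above every KO library, while WT B and D lay among or below them, so the groups overlapped. WT CSPG averaged 3406 ± 395 and KO CSPG 3166 ± 101 (SD, n = 4 each), a log2 fold change of -0.10 (SE 0.08).

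Vgf (ENSMUSG00000037428, chr5:137026392-137033351, plus strand, 6 exon blocks) was at 1297, 1114, 1422 and 1183 normalized counts in WT CSPG and at 1022, 1066, 1283 and 1087 in KO CSPG. KO library C was above WT B and D, and the groups overlapped. Its means were 1254 ± 135 and 1115 ± 116 (SD, n = 4 each), with a log2 fold change of -0.17 (SE 0.09).

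Pcsk1 encodes prohormone convertase 1/3, the protease that makes the first cuts in many propeptides, granins among them. Pcsk1 (ENSMUSG00000021587, chr13:75089826-75132498, plus strand) was at 179, 136, 177 and 160 normalized counts in WT CSPG and at 99.9, 124, 135 and 110 in KO CSPG. Every KO library was below every WT library, by a narrow margin between WT B at 136 and KO C at 135. KO CSPG had 71.8% of the WT CSPG mean (117 ± 15.4 against 163 ± 19.7, SD, n = 4 each), and the log2 fold change was -0.47 (SE 0.11). The call of Pcsk1 was lost when WT A (-0.43), WT C (-0.43) or KO A (-0.40) was left out, and with no trend or robust prior in the limma fit. Its lowest library had 103 reads.

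Bdnf encodes brain-derived neurotrophic factor, which acts through the receptor TrkB on synapses and survival. Bdnf (ENSMUSG00000048482, chr2:109674700-109727007, plus strand, 9 exon blocks, 11 transcripts) was at 1097, 823, 1219 and 942 normalized counts in WT CSPG and at 783, 935, 887 and 859 in KO CSPG. WT A and C were again above all KO libraries, and WT B was below 3 of them. Means were 1020 ± 174 and 866 ± 63.5 (SD, n = 4 each), a log2 fold change of -0.22 (SE 0.13). The table has 1 value for the gene, so its several promoters were not separated. An antisense gene, Gm45346, overlaps Bdnf, and since the sources used here do not say whether strand was kept in counting, reads of the pair cannot be told apart.

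Nptx1 and Nptx2 encode neuronal pentraxins 1 and 2, secreted proteins that form complexes and cluster AMPA receptors. Nptx1 (ENSMUSG00000025582, chr11:119538719-119547753, minus strand, 5 exon blocks) was at 1083, 966, 1071 and 884 normalized counts in WT CSPG and at 666, 679, 652 and 740 in KO CSPG. The lowest WT library was above the highest KO library by more than the SD of either group. With means of 1001 ± 94.0 and 684 ± 38.9 (SD, n = 4 each), KO CSPG had 68.4% of the WT CSPG level, a log2 fold change of -0.54 (SE 0.06).

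Nptx2 (ENSMUSG00000059991, chr5:144545902-144557478, plus strand, 5 exon blocks) was at 185, 162, 178 and 178 normalized counts in WT CSPG and at 99.9, 134, 130 and 118 in KO CSPG. The groups did not overlap. Its means were 176 ± 9.58 and 120 ± 15.4 (SD, n = 4 each), so the KO CSPG share of the WT CSPG level was also 68.4%, with a log2 fold change of -0.55 (SE 0.10).

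Inhba encodes the activin βA chain, and its dimer is activin A, a ligand of the transforming growth factor β family. Inhba (ENSMUSG00000041324, chr13:16011851-16027211, plus strand) was the lowest of the 7 genes, at 87.8, 83.4, 117 and 68.3 normalized counts in WT CSPG and at 61.1, 87.6, 69.5 and 65.4 in KO CSPG. WT C stood above the rest and KO B lay at the level of WT A, so the groups overlapped. Means were 89.2 ± 20.5 and 70.9 ± 11.7 (SD, n = 4 each), and the log2 fold change was -0.31 (SE 0.15). A pseudogene (B230303A05Rik) and an antisense gene (Gm48444) overlap Inhba on the other strand, and their reads cannot be told apart from its own here.

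**Figure D1:**
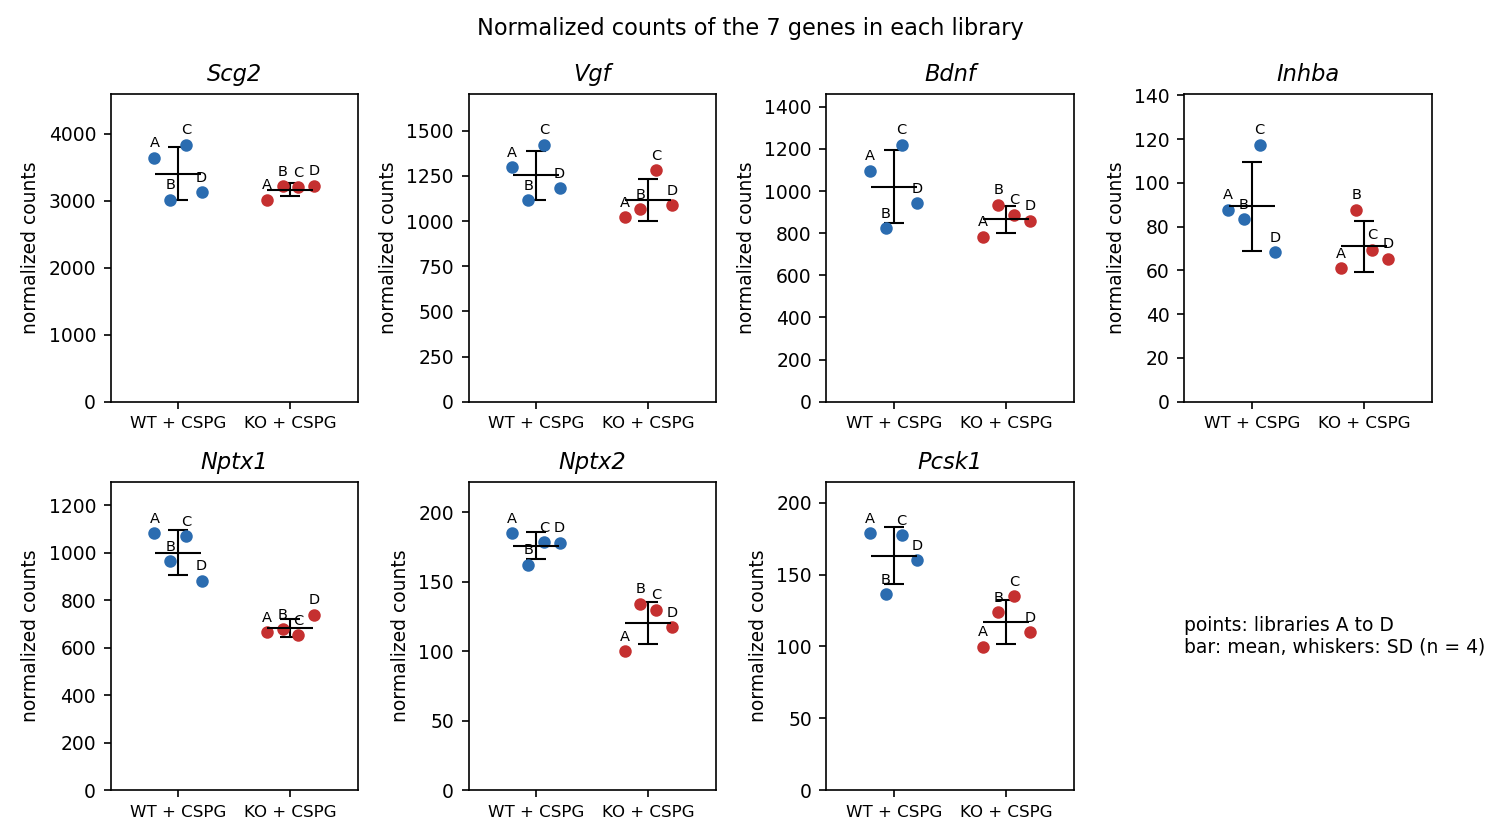
Normalized counts (vertical axis, linear from 0) of each of the 7 genes in the 4 WT and the 4 KO libraries grown on CSPGs. Points are libraries with their letters, the long bar is the mean and the whiskers are the SD (n = 4). The groups are apart for Nptx1, Nptx2 and Pcsk1, and overlap for Scg2, Vgf, Bdnf and Inhba.

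The log2 fold change was below 0 for 7 of the 7 genes, against 49.9% of all genes, and its median over the 7 was -0.31. Of the 7, 3 were called lower (Nptx1, Nptx2 and Pcsk1), where 1.77% of the counted genes were, and 4 were not called. The same 3 genes had every KO library below every WT library, which held for 5.2% of the counted genes. Since the genes were chosen with this comparison known, nothing is read from these shares. The direction stayed below 0 for each of the 7 when any 1 library was left out. Bdnf ranged from -0.32 to -0.13, Vgf from -0.24 to -0.11, Scg2 from -0.15 to -0.04, Inhba from -0.43 to -0.17, Pcsk1 from -0.56 to -0.40, Nptx1 from -0.60 to -0.50 and Nptx2 from -0.61 to -0.47. The median over the genes was -0.17 without WT C and -0.43 without WT D. Adding the summed Y-linked level to the fit as a covariate gave each gene a larger SE. The log2 fold change was then above 0 for Bdnf (0.06, SE 0.46), Vgf (0.16, SE 0.30) and Scg2 (0.20, SE 0.25). It stayed below 0 for Nptx1 (-0.28, SE 0.19), Pcsk1 (-0.30, SE 0.37), Inhba (-0.72, SE 0.51) and Nptx2 (-0.75, SE 0.33). In that fit 0 of the 7 and 1 of the 11553 genes were called. At an unadjusted p under 0.05 it held 791 genes, where the fit without it held 1872. Genotype accounted for 91.2% of the variance of the Y-linked level, so with these libraries both can hardly be told apart.

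**Figure D2:**
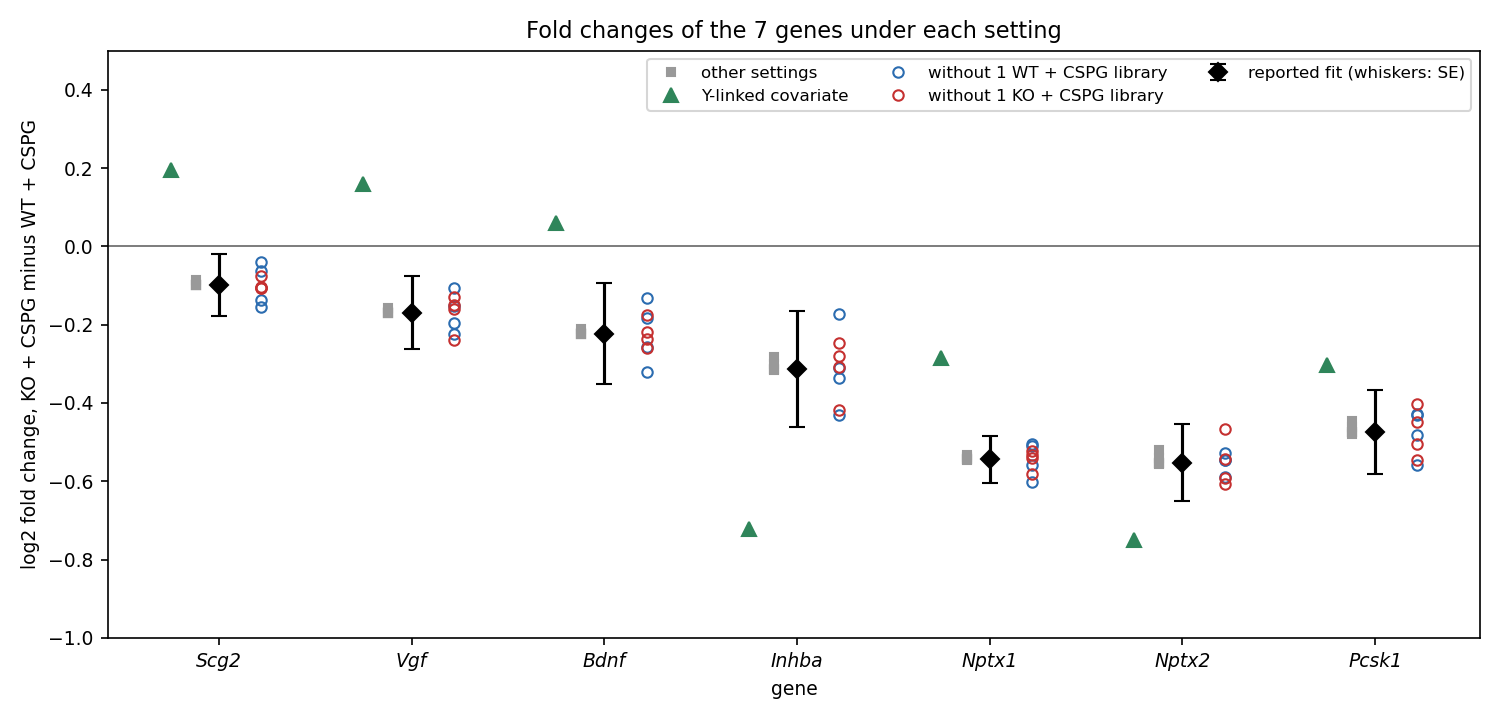
Log2 fold change, KO minus WT on CSPGs (vertical axis), for each of the 7 genes. Black diamonds are the reported values with their SE, open circles leave out 1 library each (blue for WT, red for KO), grey squares are other pseudocounts, filters, scaling and priors, and green triangles have the Y-linked level as a covariate. Each open circle lies below 0, and the triangles of Scg2, Vgf and Bdnf lie above 0. Triangles are drawn without their SE.

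Levels of different genes were compared per kilobase of the length given in the table. Over the 8 libraries, Scg2 had the highest level at a mean of 1307 normalized counts per kilobase, followed by Vgf at 398, Nptx1 at 161, Bdnf at 152, Nptx2 at 58.4, Pcsk1 at 43.3 and Inhba at 40.4. The median over all genes was 95.2. In this order the ranges pooled over both genotypes overlapped between Nptx1 and Bdnf (125 to 207 and 126 to 196). They also overlapped between Nptx2 and Pcsk1 (39.4 to 72.9 and 30.8 to 55.1), and between Pcsk1 and Inhba (30.8 to 55.1 and 30.9 to 59.3). Within WT CSPG alone, Nptx2 was above Pcsk1 without overlap (64.1 to 72.9 and 42.1 to 55.1). In KO CSPG these 2 genes overlapped (39.4 to 52.9 and 30.8 to 41.6). Nptx1 is not set apart from Bdnf, nor Pcsk1 from Inhba. Within each group the levels of Nptx1 and Bdnf overlapped too, at 169 to 207 and 132 to 196 per kilobase in WT CSPG, and at 125 to 142 and 126 to 150 in KO CSPG. The length in the table equals the merged exons of GENCODE M21 for 5 of the genes. It is shorter for Pcsk1 (3241 against 5604 bases) and for Inhba (1980 against 6390 bases). Reads on the bases left out may be missing from the values of both genes. Where the longer models would place them is therefore not known.

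Spread between libraries of the same group was wide for several of the genes. The median SD of log2 values was 0.17 in WT CSPG and 0.14 in KO CSPG over the 7, against 0.079 and 0.077 over all genes. The coefficient of variation of Bdnf in WT CSPG was 17.0%, where counting error alone gives 3.17%, and that of Scg2 was 11.6% against 1.74%. For Nptx2 in WT CSPG it was 5.44% against 7.64%, no more than counting error. Scg2 in KO CSPG was tighter, at 3.18% against 1.75%. The SD was larger in WT CSPG than in KO CSPG for 5 of the 7 genes, and for 52.7% of all genes.

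The deviations of the genes from their group means moved together across libraries, a measure that does not use the difference between genotypes. WT A and C were above WT B and D for 7 of the 7 genes, an order seen in 19.5% of all genes. KO A was the lowest library of its group for 6 of the 7, against 24.7% of all genes. Both orders were picked out from the values of these same genes, which share the libraries, so nothing is read from these shares. The mean deviation of the 7 genes on the log2 scale was 0.09, -0.16, 0.19 and -0.12 in WT CSPG A to D and -0.15, 0.09, 0.07 and -0.02 in KO CSPG A to D. Over the 8 libraries, Pearson's r of the deviations was above 0 for 21 of the 21 pairs, with a median of 0.63, and above 0.5 for 15 pairs. It was highest for Bdnf with Scg2 (0.96), Nptx2 with Pcsk1 (0.86) and Vgf with Pcsk1 (0.85), and lowest for Nptx1 with Nptx2 (0.10). Nptx1 also had low values with Pcsk1 (0.22) and Vgf (0.34). The genes share libraries, size factors and depth, so r is a description over 8 points. Its median was between 0.57 and 0.73 when 1 library was left out, and 0.61 with upper-quartile scaling. Bdnf had the highest r with the mean of the other 6 genes (0.94), then Scg2 (0.91), Pcsk1 (0.81), Vgf (0.76), Inhba (0.69), Nptx2 (0.64) and Nptx1 (0.50).

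**Figure D3:**
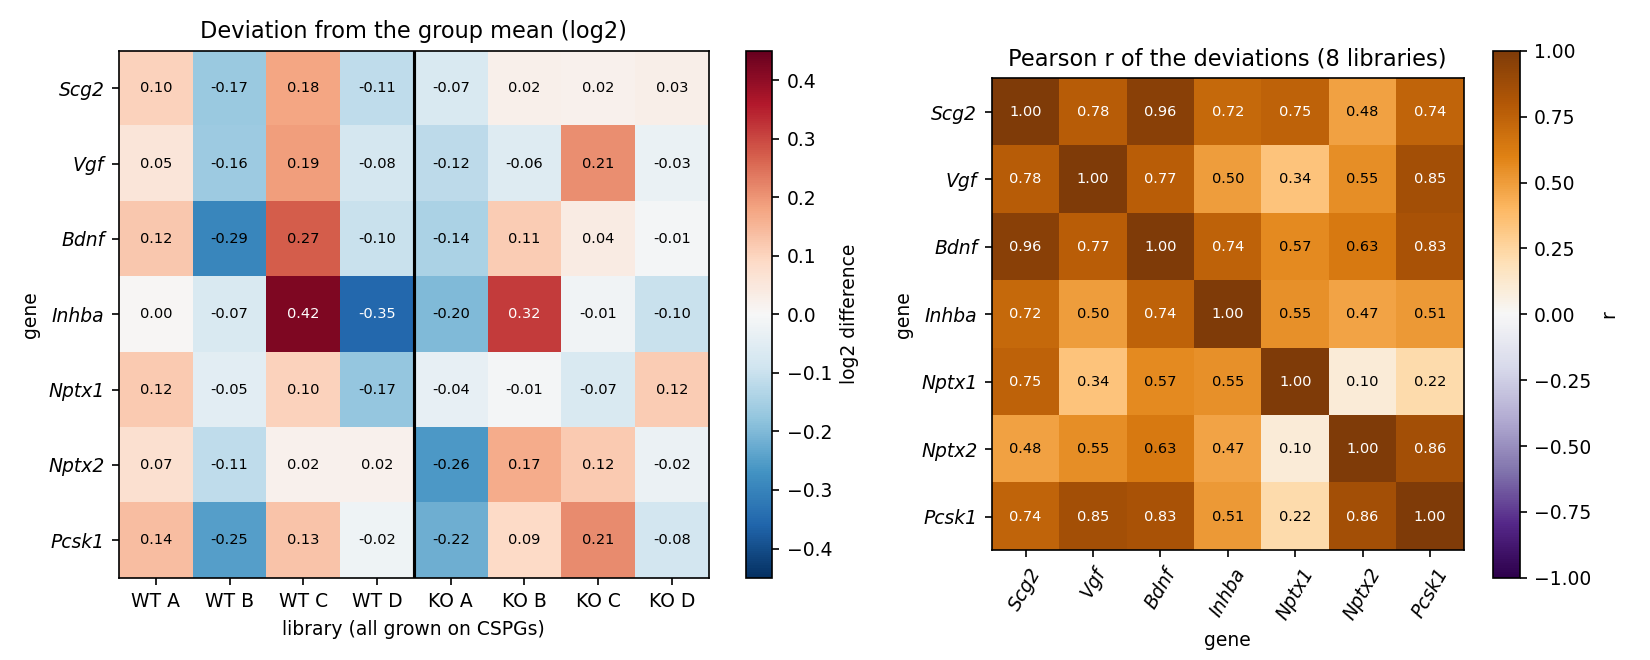
Left, the deviation of each gene from its group mean on the log2 scale (colour and printed value) in each library. Right, Pearson's r of these deviations for each pair of genes over the 8 libraries. WT A and C are above WT B and D for each gene, KO A is below its group mean for each, and Nptx1 with Nptx2 has the lowest r, 0.10.

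Of all other genes, those most like the mean deviation of the 7 over the 8 libraries were Nudt4 (r = 0.993), which encodes a diphosphoinositol polyphosphate phosphohydrolase, Inpp5f (0.991), an inositol phosphatase gene, and Brk1 (0.983), which encodes a subunit of the WAVE actin regulatory complex. Over all genes the 5th and 95th percentiles of r were -0.68 and 0.71. None of the 3 was called between genotypes, with log2 fold changes of 0.02, -0.03 and 0.06. Among the genes named by role below, Cadps (0.89), Nr4a2 (0.85), Pam (0.83), Nr4a3 (0.82), Acvr1 (0.80), Fosb (0.76) and Fosl2 (0.73) were past the 95th percentile, and Cpe (-0.81) was below the 5th. Ttr, which marks choroid plexus and was not called, had an r of -0.78. Its level was 331, 953, 11.6 and 3529 normalized counts in WT CSPG A to D and 243, 115, 5.11 and 21.8 in KO CSPG, highest in WT D and lowest of WT in C. The summed level of the 3 choroid plexus markers in the table was 162 to 3999 in WT CSPG and 209 to 527 in KO CSPG, while 5 others (Folr1, Kl, Clic6, Kcnj13 and Otx2) were not among the genes of the table. The part of choroid plexus RNA in the pattern was not tested.

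Other genes of the same roles were taken from 8 lists, with the 7 genes left out. Of 124 genes in the table, 2 were called higher and 9 lower in KO CSPG (8.87%, against 2.83% of all counted genes), and their median log2 fold change was -0.04. Of the 11 called, 6 were from the list of transcription factors and early genes. The lists were chosen with earlier results of these data known, so nothing is read from this share. The number called was between 6 and 20 when 1 library was left out, lowest without KO A and highest without WT D. It was 7 without WT A, WT C or KO C, and 0 with the Y-linked covariate. Over the granins and other dense-core vesicle proteins, 0 of 10 were called by limma, with 1 at an unadjusted p under 0.05 and a median of -0.01. Cadps, which primes dense-core vesicles for release, had a log2 fold change of -0.03 (SE 0.03, limma adjusted p = 0.678), and Scg3, a granin that binds chromogranin A, one of -0.11 (SE 0.03, limma adjusted p = 0.0873). Scg3 was called without WT D (-0.13, limma adjusted p = 0.0151).

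Among the peptide processing enzymes, 0 of 17 were called by limma, 6 had an unadjusted p under 0.05, and the median was -0.0055. Carboxypeptidase E (Cpe), which trims the ends that convertases leave, differed by -0.05 (SE 0.03, limma adjusted p = 0.298) and the amidating enzyme Pam by 0.02 (SE 0.04, limma adjusted p = 0.879). For the neurotrophins and their receptors, 0 of 11 were called by limma, 0 had an unadjusted p under 0.05, and the median was 0.03. Ntrk2, the gene of the BDNF receptor TrkB, was at 0.03 (SE 0.04, limma adjusted p = 0.715) and Kidins220, a scaffold of Trk receptors, at -0.05 (SE 0.03, limma adjusted p = 0.363). Of the 14 genes of AMPA receptor subunits and partners, 1 was called. Shisa9, which encodes an AMPA receptor auxiliary subunit, was higher in KO CSPG, at 498, 479, 528 and 531 normalized counts in WT CSPG and 581, 573, 604 and 584 in KO CSPG (log2 fold change 0.20, SE 0.05, limma adjusted p = 0.0259). Its call was lost without WT A (0.19), WT B (0.17), KO A (0.21), KO C (0.19) or KO D (0.20), and with no trend or robust prior. The median of that list was 0.10.

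In the activin and inhibin pathway, 2 of 14 genes were called, both lower, and the median was -0.0093. Inhbb, which encodes the activin βB chain, was at 897, 1003, 1063 and 985 normalized counts in WT CSPG and at 758, 780, 731 and 757 in KO CSPG, with no overlap (log2 fold change -0.38, SE 0.05, limma adjusted p = 1.59e-05). Acvr1, a type I receptor of the family, had a smaller difference with overlapping groups (-0.20, SE 0.05, limma adjusted p = 0.0259), which was not called without WT A (-0.18), WT C (-0.17), KO A (-0.19) or KO D (-0.19), nor with no trend or robust prior. Of 26 neuropeptide precursors listed, 9 were in the table, and 1 was called in each direction. Adcyap1, the gene of the neuropeptide PACAP, was at 74.2, 74.7, 80.5 and 87.6 normalized counts in WT CSPG and at 131, 135, 128 and 118 in KO CSPG, so it rose in KO CSPG (0.68, SE 0.11, limma adjusted p = 0.000278). Grp, which encodes gastrin-releasing peptide, was lower (-0.39, SE 0.08, limma adjusted p = 0.0164), with groups that overlapped in 1 library each. Its call was lost without WT C (-0.39), KO A (-0.35), KO B (-0.36) or KO C (-0.40), and with no trend or robust prior.

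The transcription factors and early genes that activity induces had 32 of 36 log2 fold changes below 0, with a median of -0.11, and 6 were called lower. Over all genes 49.9% were below 0, and 1.77% of the counted genes were called lower. The list was chosen with earlier results of these data known, so nothing is read from these shares. Fosb, a subunit of AP-1, was at 98.2, 81.2, 109 and 88.7 normalized counts in WT CSPG and at 25.2, 27.0, 29.6 and 21.8 in KO CSPG, which is 27.5% of the WT CSPG level (log2 fold change -1.82, SE 0.15, limma adjusted p = 2.36e-08). Another AP-1 subunit gene, Fosl2, was at 2470, 2201, 2430 and 2442 in WT CSPG and at 1580, 1749, 1791 and 1621 in KO CSPG (-0.50, SE 0.04, limma adjusted p = 2.33e-07). The nuclear receptor genes Nr4a2 (-0.48, SE 0.07, limma adjusted p = 0.00138) and Nr4a3 (-0.19, SE 0.03, limma adjusted p = 0.000513) were lower too, and neither had overlapping groups. These 4 genes remained called whichever library was left out, but Nr4a3 was not called with no trend or robust prior (limma adjusted p = 0.105). Egr2, Egr3, Egr4, Arc, Dusp5, Ptgs2 and Klf4 were listed but not among the genes of the table. Of CREB and its cofactors, 0 of 14 were called by limma, with 4 at an unadjusted p under 0.05 and a median of -0.04. Camk4, a calcium-dependent kinase that phosphorylates CREB, was at -0.16 (SE 0.06, limma adjusted p = 0.176).

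**Figure D4:**
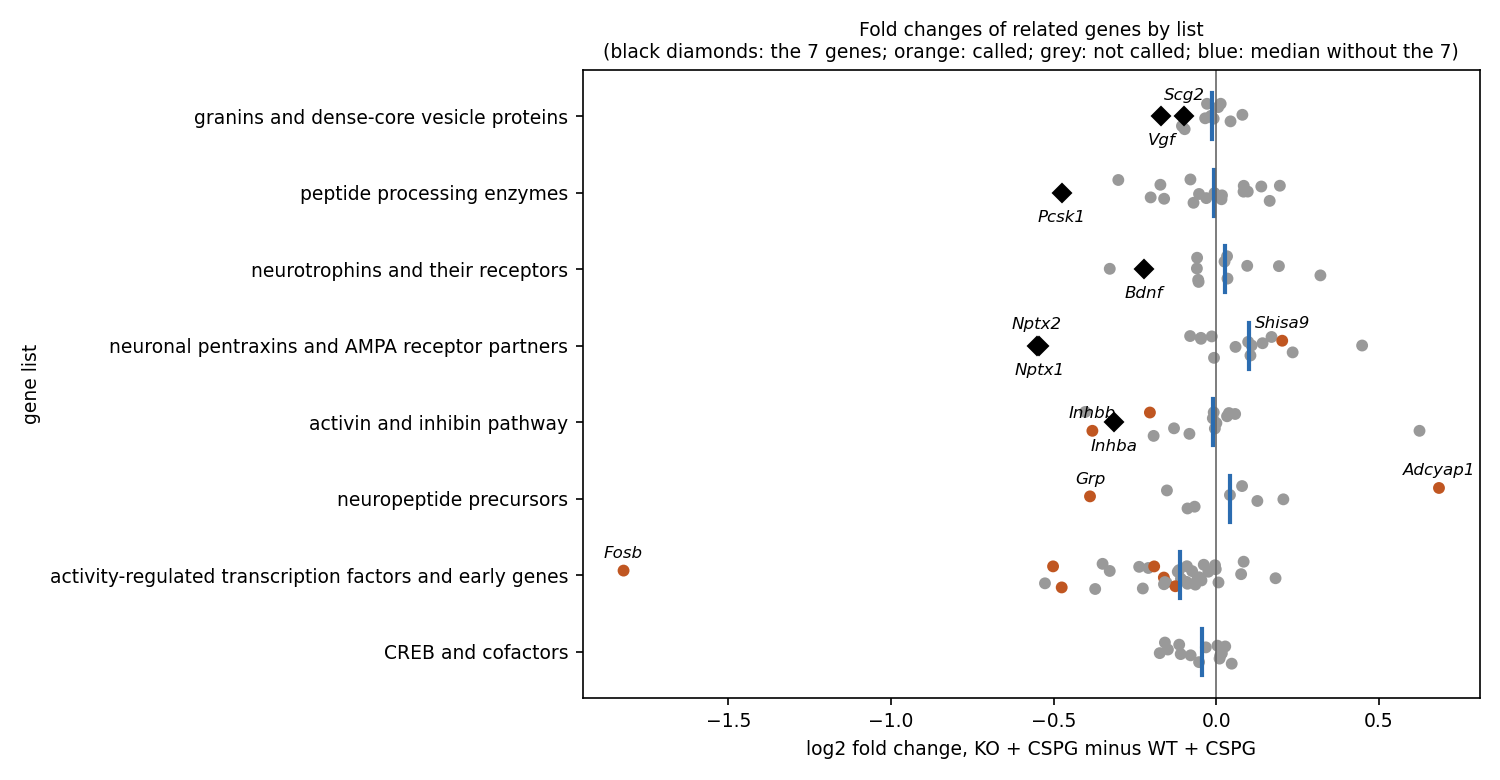
Log2 fold change, KO minus WT on CSPGs (horizontal axis), of genes in 8 lists of related roles. Each dot is a gene, orange where it was called and grey where it was not, black diamonds are the 7 genes, and blue bars are list medians without them. Fosb at -1.82 is the point farthest to the left, Adcyap1 at 0.68 the farthest to the right, and the early gene list has its median at -0.11.

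Markers of excitatory and inhibitory neurons were read beside these differences. Glutamatergic markers summed to 16695 to 18204 normalized counts in WT CSPG and to 15610 to 17062 in KO CSPG, with 1 of 9 called higher and 2 lower, among them Neurod6 (-0.19, SE 0.04, limma adjusted p = 0.0118, and 0.160 with no trend or robust prior). The log2 fold changes of the 9 ran from -0.21 to 1.12, with 4 below 0 and a median of 0.08, so the list did not move in 1 direction. GABAergic markers summed to 9099 to 10678 and to 10134 to 11548. The part of cell composition in the levels of the 7 genes was not tested. Microglial markers summed to 1585 to 1845 and to 1681 to 2070, with C1qc the most abundant at a mean of 374, and fibroblast markers, led by Fbln1, to 711 to 1159 and to 714 to 1419. Of these 11 genes 0 were called by limma, and 4 had an unadjusted p under 0.05. Of 6 endothelial markers only Kdr was in the table, at 47.5 to 82.5 in WT CSPG and 36.8 to 54.1 in KO CSPG, not called, while Pecam1, Cldn5, Cdh5, Tek and Flt1 were not.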

How the data were processed

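The authors prepared poly-A libraries (NEBNext Ultra), sequenced them as 50-base single reads and ran DESeq2 on Galaxy. The submitters' processing notes name mm10, and the aligner and counting program are not given in the sources used here. The authors deposited a table with a normalized signal per library, reads per gene divided by a size factor, and a gene length in bases. It also holds their own fold changes and p-values, which were not used. Columns were matched to libraries by name, and 0 were left over. The lowest mean of a gene was 40.7, so genes of low level are not covered. Within each library every value was a multiple of the same step to within 1e-06 reads, which gave the reads per library (medians 10544988.5 in WT CSPG and 11265741.5 in KO CSPG). Precision per gene is given as the SD over 4 libraries, and counting error alone as the Poisson coefficient of variation. Libraries of a group differed beyond sampling noise (chi-square per degree of freedom 1.83 to 2.9). The study calls replicates biological, but whether they came from separate animals is not labelled, so p-values measure the spread between these libraries.

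Values were fitted as log2(value + 1) with limma 3.58.1 in R 4.3.3 (trend and robust variances, 2 groups, Benjamini-Hochberg over 12012 genes, call at an adjusted p under 0.05). Fold changes are on this scale. As in the study, 459 pseudogenes and X- or Y-linked genes entered the fit but not the counts. On data simulated for this comparison over 12012 genes, 87 of 100 genes changed by 0.5 and 99 of 100 changed by 1 on the log2 scale were called, and 13 of 11812 unchanged genes were. Identifiers were matched to GENCODE M21 (11997 found, 9966 with the same start and end), and promoter sequences come from RefSeq on GRCm38.p6. Coordinates are GRCm38, counted from 1. Alternatives were pseudocounts of 0.1 and 10, a mean of at least 100, upper-quartile scaling, no trend or robust prior, the replicate letter as a block, a Y-linked covariate, each library left out, and all genes counted.

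The 7 genes, the lists and the markers were chosen with earlier results of these data known. Named besides the 7 are the 3 genes most like their mean deviation, the called genes of each list (at most the 4 of smallest p, or the 2 of highest level where none was called), Fibcd1, the top marker of each cell type, 4 Y-linked genes and Xist. The values of 2 genes that this rule names are not reported here.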

Additional observations from a re-analysis of the deposited data

Results flagged for a closer look

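In 84 groups of 4 libraries, formed by the 42 named genes in each genotype, 4 had 1 library far from the other 3 by Dixon's test, and chance alone gives about 4.2 (about 1 in 20). Scg2 was at 3016 normalized counts in KO CSPG A, where the other KO libraries lay between 3207 and 3224. Fosl2 was at 2201 in WT CSPG B, against 2430 to 2470.1 in the others, and the groups stayed apart. Olig1 was at 369 in WT CSPG A, against 424 to 428. Fibcd1 was at 182 in WT CSPG D, against 54.3 to 70.4 in the other WT libraries, and Ttr was highest in the same library.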

How the results depend on the processing

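Called genes numbered 327, and 78 with no trend or robust prior, 1 with the Y-linked covariate, and 177 (without KO CSPG A) to 550 (without WT CSPG D, 274 higher and 276 lower) with 1 library left out. With X- and Y-linked genes and pseudogenes counted too there were 346. Genes of the 8 lists called numbered 11, and 5 with no trend or robust prior, 0 with the covariate, and 6 to 20 with 1 library left out. Of the 7 genes, 3 were called, 2 (Nptx1 and Nptx2) with no trend or robust prior, 0 with the covariate, and 2 or 3 with 1 library left out. Pseudocounts of 0.1 and 10, a mean of at least 100 and upper-quartile scaling gave the same 3 calls, though Inhba was not fitted under that minimum. The covariate put Eif2s3y at 0.26 and Uty at 0.42, both Y-linked genes that it contains. It ended each call among the named genes. Without trend and robust prior, Shisa9, Acvr1, Grp, Nr4a3, Neurod6 and Uty were not called either. Xist (log2 fold change 0.67, limma adjusted p = 0.0367) was not called in 7 of the 8 fits that left out 1 library (0.60 to 0.73, all but the fit without KO CSPG D). The cause of these changes was not tested.

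Over all genes, the deviations of same-lettered libraries had r = -0.07, 0.10, 0.27 and -0.01 for A to D. These values do not settle whether letters mark pairs, and the labels do not say. The reported fit does not pair them. With the letter as a replicate block, 404 genes were called (157 higher, 247 lower), Vgf, Camk4 and Dcx were called as well, and Grp and Xist were not. The count tests of edgeR and DESeq2 and the TMM scaling planned as alternatives were not run. Reads could be recovered from the deposited values, but these tests were left out, so their calls are not given here. The DESeq2 fold changes and p-values of the authors were not used either. Counting error alone gives a coefficient of variation of 7.64% and 8.97% for Nptx2 and of 7.93% and 9.10% for Pcsk1 in WT CSPG and KO CSPG, and genes with a mean under 40.7 cannot be seen.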
